A study of Mus musculus with 4 samples.

Results

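The genes of the DNA replication machinery were examined in LPS-stimulated B cells with and without Nfkbiz, the gene of the nuclear IκB protein IκB-ζ. The set holds 47 genes, found by their symbols in the gene lists of all 4 RNA-seq samples. All 47 were listed, and all 47 passed the filter on low values (a score at or above 0.005 in 1 or more samples), as did 9727 of the 30041 listed genes. The score is the deposited expression value of a gene in a sample. It has no stated unit.

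Splenic B cells of C57BL/6 mice had been purified by depleting cells that carry CD43, CD4 or Ter-119 and cultured for 72 h with LPS. The labels give 20 mg/ml LPS, and the study's methods give the same number in μg/ml. The 2 control samples came from Nfkbiz fl/Δ mice and the 2 cKO samples from Nfkbiz fl/Δ Mb1 cre/+ mice, so both groups carried 1 floxed and 1 deleted allele. Cre was driven by the Cd79a (Mb1) promoter, which is active in the B lineage, and only the cKO mice carried it. No label or method names an age for the mice or a number of animals per sample. The labels carry a passage entry for these primary cells, whose meaning is not stated. Nothing states that the samples of a group came from separate mice or cultures, so p-values measure only the spread between these samples.

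A cell copies its DNA in an ordered series of steps. The origin recognition complex marks origins, and Cdc6 and Cdt1 load the Mcm2-7 helicase there, while geminin (Gmnn) blocks Cdt1. The Cdc7-Dbf4 kinase, Mcm10, Cdc45 and the GINS complex then start the helicase, polymerase α-primase lays primers, and polymerases δ and ε extend them with the clamp Pcna. Resting B cells carry little of this machinery, and mitogens such as LPS induce it as the cells enter the cell cycle, largely through E2F transcription factors.

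The promoters of these genes were searched for E2F-type motifs. RefSeq promoters of the GRCm38.p6 table, from 250 bases before to 50 bases after the start of a gene, were matched for 39 of the 47 genes. Both strands were searched for TTTCCCGC, TTTCGCGC, TTTGCCGC and TTTGGCGC, with overlapping matches counted once. A gene counted as matched if any of its promoters matched. A match was found for 14 of the 39 (35.9%), against 5.31% of the 6460 genes past the filter that had a promoter. Of all 27025 genes with a promoter, 2.60% had a match. The 8 windows printed here cover the gene that fell in cKO cells (Pola1), the gene with the next largest difference (Pole2), and the origin and helicase genes Orc1, Cdc6, Mcm3, Mcm5, Mcm6 and Mcm7. They were placed on NCBIM37 (mm9) by exact match and are written 5′ to 3′ on the strand of the gene, with the match in capitals:
Pola1, chrX:90877614-90877643, minus strand: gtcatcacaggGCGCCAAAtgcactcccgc
Pole2, chr12:70329149-70329178, minus strand: cgtcggcggtgGCGCCAAAtcgcgaacatg
Orc1, chr4:108252021-108252050, plus strand: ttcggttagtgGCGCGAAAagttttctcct
Cdc6, chr11:98769316-98769345, plus strand: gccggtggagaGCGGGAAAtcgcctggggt
Mcm3, chr1:20810356-20810385, minus strand: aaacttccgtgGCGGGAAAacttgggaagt
Mcm5, chr8:77633244-77633273, plus strand: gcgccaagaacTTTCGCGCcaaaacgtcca
Mcm6, chr1:130256311-130256340, minus strand: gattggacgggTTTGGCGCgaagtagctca
Mcm7, chr5:138613077-138613106, minus strand: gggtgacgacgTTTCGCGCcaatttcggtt

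In Pola1 the first base of the match lies at position -138 from the start of the gene, and in Pole2 at position 11. A match describes the letters in a window and is not a bound site. A pair of other motifs was searched for comparison. CCAAT stood in a promoter of 23 of the 39 genes (59.0%) against 43.4% of genes past the filter, and TTTGAA in 7 of the 39 (17.9%) against 14.6%.

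The targeted gene and markers of B cells and other cells were read first. Nfkbiz had scores of 0.0241 and 0.0226 in control and 0.0127 and 0.0116 in cKO samples and fell by 0.94 on the log2 scale (SE 0.0956, limma adjusted p = 0.0282). All 8 B cell markers were detected, with a summed score of 2.42 and 2.71 in control and 2.35 and 2.33 in cKO samples, but single markers differed in opposite directions. Cd79a, a chain of the B cell receptor complex and the gene whose promoter drives Cre here, scored 0.667 and 0.743 in control and 0.415 and 0.407 in cKO samples. It fell by 0.78 on the log2 scale (SE 0.0843, limma adjusted p = 0.0294, or 0.153 without cKO 1 and 0.0894 without cKO 2). Its partner Cd79b (log2 0.28, adjusted p = 0.234) and the kinase Blk (log2 0.48, adjusted p = 0.173) had both cKO scores above both controls. They were 2 of the 8 markers (25%, against 28.1% of all genes). Both cKO scores lay below both controls for 5 (62.5%, against 30.1% of all genes). These were Cd79a, Cd22 (log2 -0.35), Ebf1 (-0.33), Ms4a1 (-0.16) and Pax5 (-0.06).

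Markers of other cells differed as well. All 10 T and NK cell markers lay below 0.005 in every sample, with a summed score of 0.00319 and 0.00289 in control and 0.00597 and 0.00546 in cKO samples. Of the 9 myeloid markers, 7 lay below 0.005 in every sample, and S100a9 was listed at 0. Their sum was 0.170 and 0.167 in control and 0.195 and 0.202 in cKO samples, most of it from Itgam (log2 0.00). Lyz2, the lysozyme gene of myeloid cells, scored 0.0205 and 0.0112 in control and 0.0485 and 0.0329 in cKO samples (log2 1.39, adjusted p = 0.0961), so that both cKO samples were above the controls. The 5 erythroid markers summed to 0.0133 and 0.00252 in control and 0.00227 and 0.00184 in cKO samples. The 5 listed plasma cell markers summed to 0.313 and 0.253 in control and 0.273 and 0.224 in cKO samples, again with opposite directions. Both cKO scores lay below both controls for 2 and above for 2. Most of the sum came from Xbp1 (log2 0.11) and Igj. Igj scored 0.134 and 0.0783 in control and 0.0552 and 0.0572 in cKO samples (log2 -0.86, limma adjusted p = 0.130). Prdm1, the plasma cell regulator Blimp-1, scored 0.00835 and 0.00458 in control and 0.00083 and 0.00075 in cKO samples. It fell by 2.82 on the log2 scale (limma adjusted p = 0.0429, or 0.0848 without control 1, 0.174 without cKO 1 and 0.0971 without cKO 2). Sdc1, the gene of the plasma cell surface protein CD138, scored 0.00398 and 0.00418 against 0.00814 and 0.00604 (log2 0.77, adjusted p = 0.116), with the cKO samples higher. The study measured the CD138 protein by flow cytometry and reported less of it on cKO B cells. With no filter or without the variance trend neither Cd79a nor Prdm1 passed the threshold, and Prdm1 missed it with quantile normalization too (0.0524). These marker genes were singled out after their values were seen. The part of these cells in the differences below was not tested. The scores of all genes summed to between 604.2 and 637.6 per sample.

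Replication genes had lower scores in cKO than in control B cells throughout the pathway, by a small amount. Of the 47 genes, 44 (93.6%) had a negative log2 fold change, against 51.8% of all 9727 genes, and the median ratio of cKO to control was 0.843 (median log2 fold change -0.25, against -0.01 for all genes). Both cKO samples scored below both controls for 37 genes (78.7%), against a background of 30.1%. Both were above for 1 gene, Rfc5, against a background of 28.1%. Few genes passed the test on their own. By limma with Benjamini-Hochberg adjustment over all genes, 1 of the 47 (2.13%) was lower, Pola1, against 1.25% of all genes, and 0 were higher, against 0.812%. At an unadjusted p under 0.05, 24 of the 47 (51.1%) were lower, against 11.5% of all genes, and 0 were higher, against 10.8%. In bulk samples such as these, fewer cycling cells and less RNA of these genes per cell cannot be told apart.

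**Figure D1:**
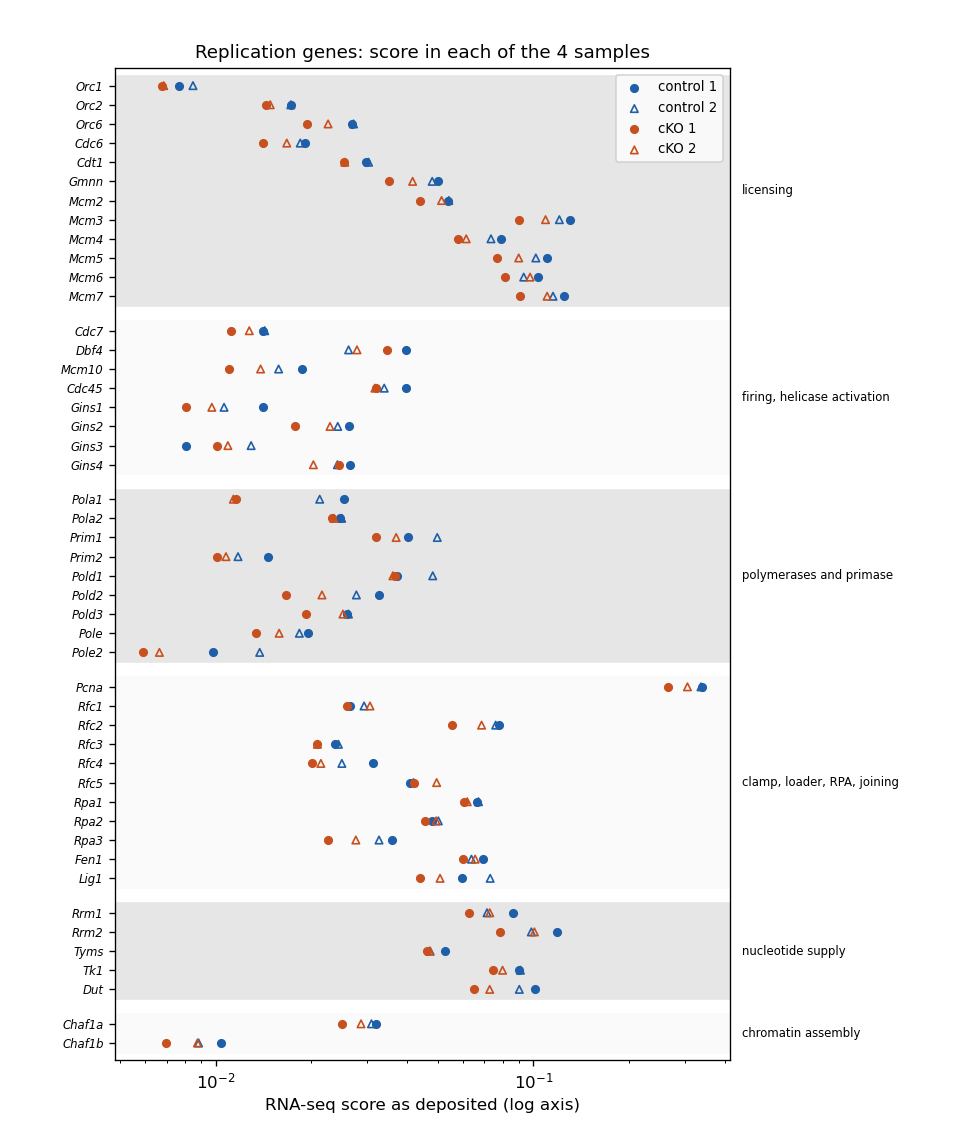
Deposited RNA-seq score (log axis, no stated unit) of each of the 47 replication genes in control 1, control 2, cKO 1 and cKO 2, grouped by role. The cKO points lie to the left of both control points for 37 of the 47 genes, and Pola1 shows a wide gap between the groups.

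The cKO samples were not equally low. The median log2 difference of the 47 genes from the control mean was 0.03 and -0.03 in control 1 and control 2, -0.38 in cKO 1 and -0.20 in cKO 2. For all genes the 4 medians lay between -0.02 and 0.00. The score in cKO 1 was below that in cKO 2 for 42 of the 47 genes (89.4%), against 53.7% of all genes, and control 1 was above control 2 for 29 (61.7%), against 48.1%. The replication genes of cKO 1 and cKO 2 thus differed from each other by a median of -0.20, and those of control 1 and control 2 by 0.06. The median log2 fold change was -0.38 without cKO 2 and -0.20 without cKO 1, and 43 to 45 of the 47 genes had a negative value when any sample was left out.

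**Figure D2:**
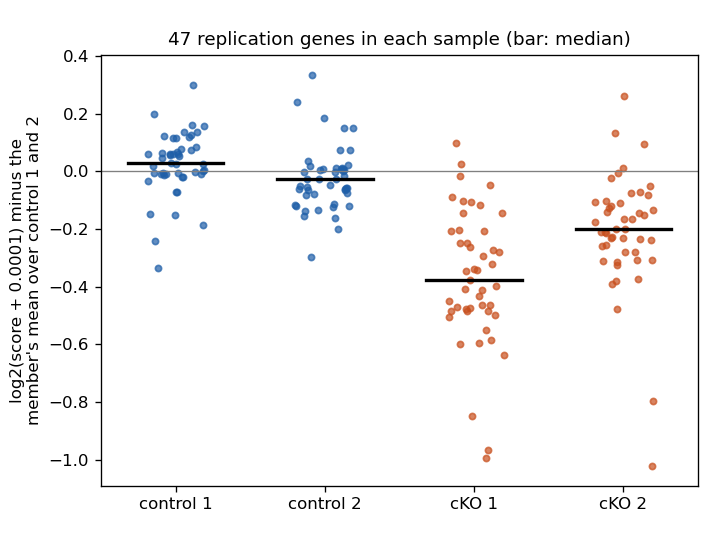
Difference of log2(score + 0.0001) from the gene's mean over control 1 and control 2, for each of the 47 replication genes (points) in each sample, with the median as a bar. The medians are 0.03, -0.03, -0.38 and -0.20, so both cKO samples lie below the controls and cKO 1 lies lowest.

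The order of the genes by level was nearly the same in every sample. Across the 47 genes, the Spearman correlation of the scores with those of control 1 was 0.984 in control 2, 0.973 in cKO 1 and 0.978 in cKO 2. These are descriptions over genes, which are not independent replicates. If the score is a value per exon base, an inference from its low values, Pcna was the most abundant of them, with scores of 0.339 and 0.337 in control and 0.266 and 0.306 in cKO samples. The next genes were Mcm3, with a mean score over the 4 samples of 0.113, and Mcm7, with 0.110, whose ranges overlapped. The lowest were Pole2, Chaf1b and Orc1, with mean scores of 0.00903, 0.00873 and 0.00743, and their ranges overlapped as well.

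Licensing genes, which place the helicase on origins, had lower mean scores in cKO cells throughout. All 12 had a negative log2 fold change, and the median ratio was 0.825 (log2 -0.28). The groups were apart with cKO lower for 11 of them (91.7%, against 30.1% of all genes). None passed the threshold, with limma adjusted p from 0.110 to 0.501. Of the 12, 8 (66.7%) were lower at an unadjusted p under 0.05, against 11.5% of all genes. The largest difference was in Orc6, the smallest subunit of the origin recognition complex. Its scores were 0.0269 and 0.0271 in control and 0.0193 and 0.0226 in cKO samples, giving a log2 difference of -0.37 (SE 0.104, limma adjusted p = 0.131), with both cKO samples below the nearly equal controls. Orc1, an ATPase subunit, scored 0.00765 and 0.00847 in control and 0.00676 and 0.00685 in cKO samples. Orc2 scored 0.0173 and 0.0172 against 0.0143 and 0.0148. Neither gene overlapped between the groups.

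The loaders and their inhibitor had similar differences. Cdc6, the loading ATPase, scored 0.0191 and 0.0184 in control and 0.0141 and 0.0167 in cKO samples. Cdt1, its partner in loading, scored 0.0297 and 0.0303 against 0.0252 and 0.0255. Gmnn, whose protein restrains Cdt1, scored 0.0499 and 0.0480 against 0.0350 and 0.0417. The groups were apart for each of these 3 genes, and the log2 fold changes were -0.29 for Cdc6, -0.24 for Cdt1 and -0.36 for Gmnn.

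The 6 subunits of the Mcm2-7 ring, the core of the replicative helicase, ranged in log2 fold change from -0.36 for Mcm4 to -0.14 for Mcm6. Mcm4 scored 0.0791 and 0.0735 in control and 0.0578 and 0.0614 in cKO samples (SE 0.0865, limma adjusted p = 0.110). Mcm3 scored 0.130 and 0.121 against 0.0902 and 0.109, and Mcm5 scored 0.110 and 0.102 against 0.0769 and 0.0899. In these subunits, and in Mcm2 (log2 -0.18) and Mcm7 (-0.26), cKO 1 was the lowest sample and the groups did not overlap. Mcm6 was the exception. Its scores were 0.103 and 0.0932 in control and 0.0811 and 0.0976 in cKO samples, so that cKO 2 lay between the controls (log2 -0.14, SE 0.117, 95% interval -0.43 to 0.15, limma adjusted p = 0.501).

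Genes that fire origins and activate the helicase varied more. Of the 8 genes, 7 had a negative log2 fold change, and the median ratio was 0.854 (log2 -0.23). The groups were apart with cKO lower for 5 (62.5%, against 30.1% of all genes). Limma adjusted p ranged from 0.156 to 0.930. Of the 8, 2 (25%) were lower at an unadjusted p under 0.05, against 11.5% of all genes. Mcm10, which helps to activate the loaded helicase, differed most. It scored 0.0187 and 0.0158 in control and 0.0110 and 0.0138 in cKO samples, giving a log2 difference of -0.47 (SE 0.147, limma adjusted p = 0.156). Both cKO samples were lower, with cKO 1 lowest.

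Values differed within the kinase and within the GINS complex. Cdc7, the kinase that triggers firing, scored 0.0141 and 0.0143 in control and 0.0112 and 0.0127 in cKO samples (log2 -0.25). Its activator Dbf4 scored 0.0396 and 0.0262 in control and 0.0345 and 0.0278 in cKO samples (log2 -0.06), with the cKO scores between the controls. Of the GINS complex, which joins Cdc45 and the Mcm ring in the active helicase, Gins1 had a log2 fold change of -0.46, Gins2 -0.32 and Gins4 -0.18. Gins3 was the exception, with 0.00808 and 0.0129 in control and 0.0101 and 0.0109 in cKO samples (log2 0.04, SE 0.220, 95% interval -0.50 to 0.58, limma adjusted p = 0.930). Here the controls lay on either side of both cKO samples, and the sign was negative without control 1 (-0.30) and without cKO 2 (-0.01). Cdc45, the helicase cofactor, scored 0.0397 and 0.0339 in control and 0.0318 and 0.0317 in cKO samples (log2 -0.21).

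Polymerase and primase genes showed the lowest median ratio of the role groups, 0.769 (log2 -0.38), though differences between role groups were not tested. In all 9 the cKO samples lay below both controls, against 30.1% of all genes. Of the 9, 6 (66.7%) were lower at an unadjusted p under 0.05, against 11.5% of all genes. Pola1 alone passed the adjusted threshold. Pola1 encodes the catalytic subunit of polymerase α and lies on chromosome X of NCBIM37 from 90550106 to 90877494, on the minus strand. It scored 0.0253 and 0.0212 in control and 0.0116 and 0.0114 in cKO samples, or 0.0233 ± 0.00286 against 0.0115 ± 0.000156 (SD, n = 2 each). Its level fell by 1.01 on the log2 scale (ratio 0.497, SE 0.111, 95% interval -1.28 to -0.73, limma adjusted p = 0.0294). The gap between the groups was wider than the difference within either. When any sample was left out, the difference lay between -1.13 and -0.88, and the limma adjusted p was 0.160 without cKO 1 and 0.0921 without cKO 2. It also missed the threshold with no filter on the score (0.203) and without the variance trend (0.0579).

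The other subunits of the polymerase α-primase complex had smaller differences than Pola1. Pola2, the accessory subunit, scored 0.0247 and 0.0249 in control and 0.0233 and 0.0235 in cKO samples (log2 -0.08, SE 0.0806, 95% interval -0.28 to 0.12, limma adjusted p = 0.567). Prim1, the catalytic primase subunit, scored 0.0404 and 0.0498 against 0.0320 and 0.0370 (log2 -0.38). Prim2, the large primase subunit, scored 0.0146 and 0.0117 against 0.0101 and 0.0108 (log2 -0.33). In each of the 3 the cKO samples were lower, and in Pola2 the gap was narrow. The log2 level of Pola1 relative to the mean of its 3 partners was 0.05 and -0.20 in control and -0.75 and -0.89 in cKO samples. The groups did not overlap in this ratio and differed by -0.74, with a two-sided exact permutation p of 0.333. That is the smallest p that 2 samples against 2 allow. Pola1 had the largest difference of the 47 genes, so this ratio draws on the same values and is not separate evidence.

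**Figure D3:**
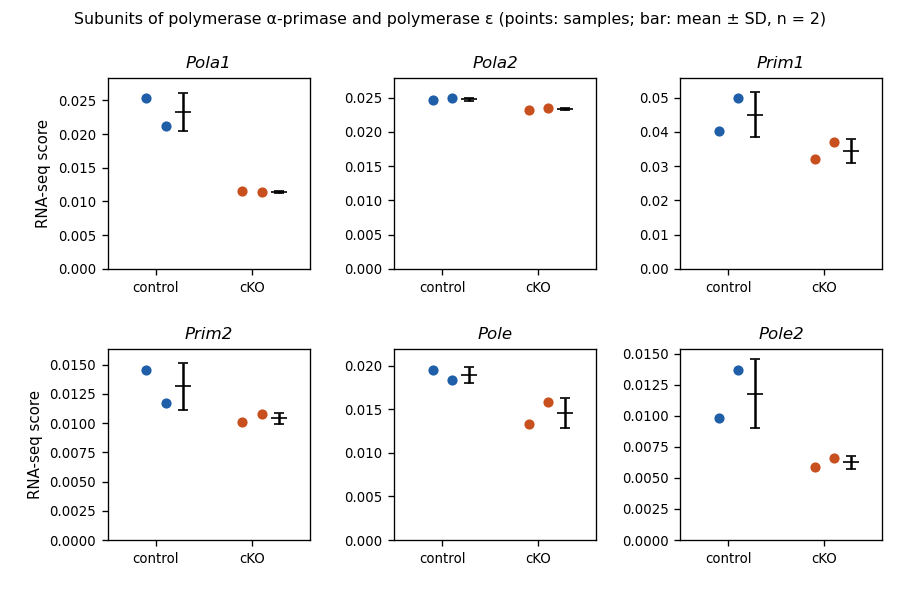
Deposited RNA-seq score (linear axes from 0, no stated unit) of the subunits of polymerase α-primase and polymerase ε in 2 control and 2 cKO samples, with points for samples and bars for mean ± SD (n = 2). Pola1 falls from 0.0233 to 0.0115 while Pola2 lies near 0.024, and the cKO samples of Pole2 lie below both controls.

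Polymerase ε, which synthesizes the leading strand, gave a similar spread among subunits. Pole, its catalytic subunit, scored 0.0196 and 0.0183 in control and 0.0134 and 0.0158 in cKO samples (log2 -0.38). Pole2, an accessory subunit, scored 0.00982 and 0.0137 against 0.00590 and 0.00664 (log2 -0.88, SE 0.183, 95% interval -1.33 to -0.43). Both Pole2 cKO samples were low, but the controls differed from each other, and the limma adjusted p was 0.0820. The log2 fold change of Pole2 was -1.12 without control 1 and -0.64 without control 2. Pole2 and Pold2 are described in full because of the size of their differences, a choice made after their values were seen. The small subunits Pole3 and Pole4, from a wider list of replication genes, had log2 fold changes of -0.32 (adjusted p = 0.394) and -0.18 (adjusted p = 0.317).

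Polymerase δ, the lagging-strand enzyme, had its lowest ratios in accessory subunits. Pold1, the catalytic subunit, scored 0.0372 and 0.0482 in control and 0.0367 and 0.0361 in cKO samples (log2 -0.22), with control 1 close to the cKO samples. Pold2 scored 0.0327 and 0.0277 against 0.0167 and 0.0216 (log2 -0.66, SE 0.152, limma adjusted p = 0.100). Pold3 scored 0.0259 and 0.0262 against 0.0193 and 0.0251 (log2 -0.24), with cKO 2 near the controls. Pold4, the smallest subunit and a gene of the wider list, scored 0.123 and 0.112 in control and 0.0637 and 0.0720 in cKO samples. Pold4 fell by 0.79 on the log2 scale (SE 0.0996, 95% interval -1.04 to -0.55, limma adjusted p = 0.0331), with the groups well apart. Its adjusted p was 0.192 without cKO 1, 0.0858 without cKO 2, 0.203 with no filter and 0.0639 without the variance trend.

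**Figure D4:**
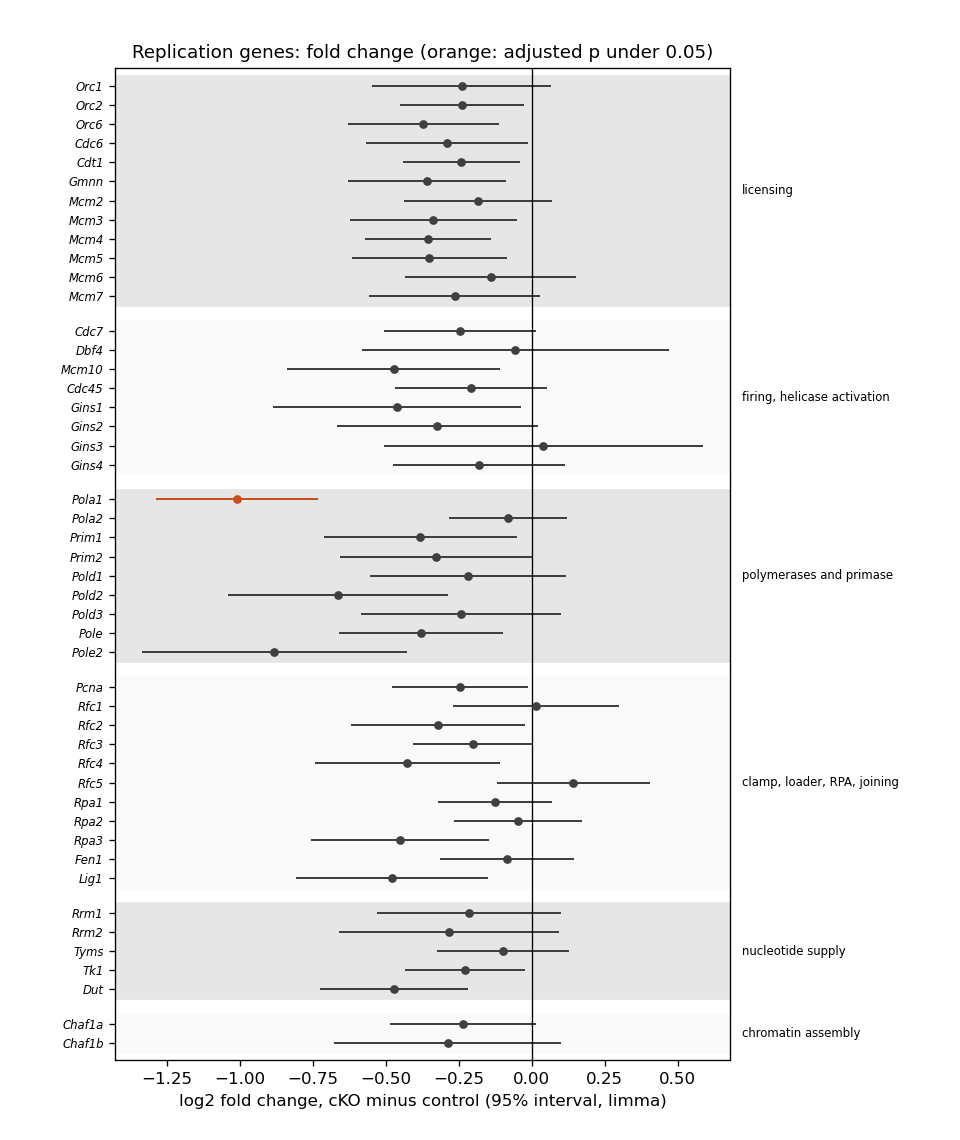
Log2 fold change (cKO minus control) of the 47 replication genes with 95% intervals from limma, grouped by role, with the gene at an adjusted p under 0.05 in orange. Pola1 at -1.01 stands at the low end, most points lie between -0.5 and 0, and Rfc5, Gins3 and Rfc1 lie above 0.

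Clamp, clamp loader, single-strand binding and joining genes gave mixed values. Of the 11 genes, 9 had a negative log2 fold change, and the median ratio was 0.869 (log2 -0.20). The groups were apart with cKO lower for 7 (63.6%, against 30.1% of all genes). Limma adjusted p ranged from 0.126 to 0.950. Of the 11, 6 (54.5%) were lower at an unadjusted p under 0.05, against 11.5% of all genes. Lig1, the ligase that seals Okazaki fragments, differed most. It scored 0.0594 and 0.0731 in control and 0.0439 and 0.0508 in cKO samples, giving a log2 difference of -0.48 (SE 0.132, limma adjusted p = 0.129). That difference was -0.63 without control 1 and -0.33 without control 2. Fen1, which trims the flaps that Lig1 then seals, scored 0.0694 and 0.0638 against 0.0602 and 0.0655 (log2 -0.08), with overlapping groups. Pcna, the sliding clamp, had a log2 fold change of -0.25 and both cKO samples below the controls.

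The clamp loader, replication factor C, was split. Rfc4 (log2 -0.43), Rfc2 (-0.32) and Rfc3 (-0.20) had both cKO scores below both controls. Rfc1, the large subunit, scored 0.0265 and 0.0293 in control and 0.0259 and 0.0306 in cKO samples (log2 0.01, SE 0.114, 95% interval -0.27 to 0.30, limma adjusted p = 0.950). Its groups overlapped fully, and the sign was negative without control 1 (-0.06) and without cKO 2 (-0.11). Rfc5 scored 0.0408 and 0.0419 in control and 0.0420 and 0.0496 in cKO samples (log2 0.14, SE 0.105, 95% interval -0.12 to 0.40, limma adjusted p = 0.454). It was the only gene of the 47 with both cKO scores above both controls, and cKO 1 exceeded control 2 by little.

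Replication protein A, the single-strand binding trimer, was split as well. Rpa3, its smallest subunit, scored 0.0358 and 0.0326 in control and 0.0226 and 0.0276 in cKO samples (log2 -0.45, limma adjusted p = 0.126). Rpa1, the largest, had a log2 fold change of -0.13, and Rpa2 of -0.05 with overlapping groups.

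Nucleotide supply genes had a median ratio of 0.853 (log2 -0.23), with all 5 negative. The groups were apart with cKO lower for 3 (60%, against 30.1% of all genes). The median log2 value depended on single samples and was -0.11 without cKO 1, -0.15 without control 1 and -0.35 without control 2. Limma adjusted p ranged from 0.0908 to 0.548. Of the 5, 2 (40%) were lower at an unadjusted p under 0.05, against 11.5% of all genes. Dut, which removes dUTP and supplies dUMP for thymidylate synthesis, scored 0.101 and 0.0903 in control and 0.0652 and 0.0728 in cKO samples. Its log2 fold change was -0.47 (SE 0.102, 95% interval -0.72 to -0.22, limma adjusted p = 0.0908), with a clear gap between the groups. The value was -0.39 without control 1 and -0.56 without control 2. Tyms, thymidylate synthase, showed the smallest difference, with 0.0527 and 0.0473 in control and 0.0461 and 0.0472 in cKO samples (log2 -0.10, SE 0.0908, 95% interval -0.32 to 0.13, limma adjusted p = 0.548). Tk1, the salvage kinase for thymidine, scored 0.0898 and 0.0910 against 0.0744 and 0.0800 (log2 -0.23), with no overlap. The ribonucleotide reductase subunits Rrm1 (log2 -0.21) and Rrm2 (-0.28) had cKO 2 between the controls.

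The large subunits of chromatin assembly factor 1, which deposits histones behind the fork, completed the set. Chaf1a scored 0.0320 and 0.0309 in control and 0.0249 and 0.0287 in cKO samples (log2 -0.24, SE 0.101, limma adjusted p = 0.240). Chaf1b scored 0.0104 and 0.00882 against 0.00698 and 0.00875 (log2 -0.29, SE 0.156, limma adjusted p = 0.331), with cKO 2 just below control 2. Neither gene overlapped between the groups. The median log2 value of the pair, -0.26, was -0.13 without cKO 1 and -0.39 without cKO 2.

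A wider list of 45 other replication genes showed a smaller difference. Of the 44 that passed the filter, 38 (86.4%, against 51.8% of all genes) had a negative log2 fold change, and the median ratio was 0.885 (log2 -0.18). The groups were apart with cKO lower for 23 (52.3%, against 30.1% of all genes). By limma 1 (2.27%), Pold4, passed the adjusted threshold as lower, against 1.25% of all genes, and 0 as higher, against 0.812%. At an unadjusted p under 0.05, 15 (34.1%) were lower, against 11.5% of all genes. The median log2 value was -0.11 without cKO 1 and -0.28 without cKO 2. After Pold4 the largest differences were in Rnaseh2b (log2 -0.51, adjusted p = 0.0764), a subunit of the ribonuclease that removes ribonucleotides from DNA, and Dhodh (-0.49, adjusted p = 0.0961), an enzyme of pyrimidine synthesis. Clspn (-0.47), Top2a (-0.43), Tipin (-0.43) and Uhrf1 (-0.42) were among those that followed, none past the threshold. Both cKO scores lay above both controls for 2 genes (4.55%), Tk2 (log2 0.31) and Supt16h (0.19), against 28.1% of all genes. The remaining subunits of the origin recognition complex, Orc3 (-0.05, adjusted p = 0.896), Orc4 (-0.03, adjusted p = 0.858) and Orc5 (0.01, adjusted p = 0.949), lay close to 0.

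Genes of the adjoining cell cycle phases were compared as well. Of 10 regulators of S phase entry past the filter, 8 had a negative log2 fold change, from -0.43 for Ccna2, cyclin A2, to 0.12 for E2f3, with a median of -0.19 and 0 past the adjusted threshold. Of these regulators, 1 (10.0%) was lower at an unadjusted p under 0.05, a share near the 11.5% of all genes. Both cKO scores lay below both controls for 7 of the 10 (70%), against 30.1% of all genes, and cKO 1 was below cKO 2 for 9 (90%), against 53.7%. All 29 mitosis genes had a negative log2 fold change, from -0.50 for Bub1 to -0.14 for Mki67, with a median of -0.30, 0 past the adjusted threshold (smallest limma adjusted p 0.0691) and 17 (58.6%) lower at an unadjusted p under 0.05. For 26 of the 29 mitosis genes (89.7%) both cKO scores lay below both controls. In 28 of the 29 (96.6%), cKO 1 was below cKO 2, the order seen in the replication genes. The controls also stood apart on this list, with control 1 above control 2 for 27 of the 29 (93.1%), against 48.1% of all genes. No test of a difference between these lists was made.

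**Figure D5:**
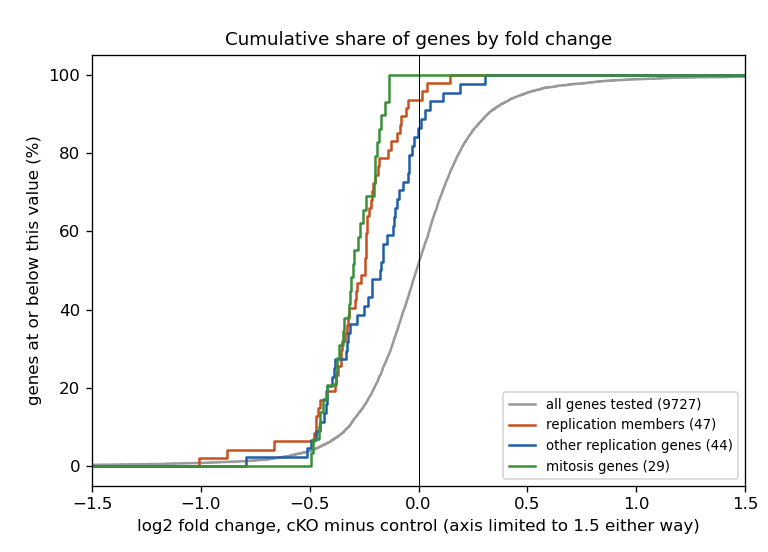
Cumulative percentage of genes at or below each log2 fold change (cKO minus control) for all 9727 genes tested, the 47 replication genes, 44 other replication genes and 29 mitosis genes. At 0 the 3 list curves lie above the curve for all genes, with 93.6% of the replication genes and 51.8% of all genes below 0.

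The promoter motif did not sort the genes by the size of their difference. The median log2 fold change was -0.25 for the 14 genes with an E2F-type match and -0.24 for the 25 with a promoter and no match. Pola1 and Pole2 are among the 14, as are Gins3 (0.04) and Mcm6 (-0.14), whose intervals include 0. The intervals of Orc1, Mcm7, Pold1 and Pold3, also among the 14, include 0 as well. The genes of the windows printed above span log2 fold changes from -1.01 to -0.14. Pola1 and Pole2 were printed because of their differences, so the low end of this range was set by that choice.

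The precision of these values rests on depth that the files do not state. Products of low scores and exon lengths cluster at multiples of a step. Under the assumption that a score is a read count divided by exon length and library size, the 4 samples held about 17800000, 18300000, 19900000 and 17500000 reads, or fewer if the true step is a multiple. The 47 genes would then have between 197 reads (Pole2 in cKO 2) and 14829 reads (Pcna in control 2) per sample, with a median of 2071. Exons of 13 of the 47 genes overlap an exon of another annotated gene, in 12 of them only on the opposite strand, and whether strand was used in counting is not given in the sources used here. The 13 are Cdc45, Chaf1a, Fen1, Gins2, Lig1, Mcm7, Orc1, Orc2, Pole, Rfc4, Rfc5, Tk1 and Tyms, and reads of the overlapping genes cannot be told apart there. Pola1 is not among them.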

How the data were processed

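Poly(A) RNA of 2 control and 2 cKO samples had been sequenced. Per the labels and methods, the authors mapped reads to mm9 with TopHat2 2.0, applied a base quality cutoff, filtered out ribosomal and transfer RNA with BED Tools, and deposited 1 score per gene and sample. How reads became a score is not given in the sources used here, so it was treated as a normalized value.

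Differences were fitted with limma 3.58.1 (R 4.3.3; trend, no block) on log2(score + 0.0001) over the 9727 genes that reached 0.005 in 1 or more samples, with Benjamini-Hochberg adjustment and a threshold of 0.05. Fold changes on this scale understate those of low genes. The fit was tested on simulated data. Genes were placed on NCBIM37 with GENCODE. Full values are given for members past the threshold, with the largest or smallest difference in a role group, or with a positive one. Members and lists were chosen with earlier results of these data known. Some genes that the naming rule covers are not reported here. Of the wider list, Ticrr was not found under that symbol.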

Additional observations from a re-analysis of the deposited data

How the results depend on the processing

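The lower scores of the 47 replication genes kept their direction in every setting, with 43 to 45 of 47 negative when a sample was left out and a median log2 fold change between -0.38 and -0.20. The shares of all genes depended on the filter. Both cKO scores lay below both controls for 43% of all genes with the filter above 0.05. That share was 21.8% with no filter and 30.1% in the main fit. Of all genes, 556, 3203 and 1979 had an unadjusted limma p under 0.05 with the filter above 0.05, no filter and no variance trend. These counts, and those of the 47 under the same settings below, pool lower and higher genes. The fit without the variance trend covered the 9727 genes of the main fit. How many genes the other filters kept is not given here, so for them no share of all genes can be set beside the 47. The number of the 47 past the adjusted threshold was less stable than their direction. It was 0 with a filter above 0.05 (17 of the 47 genes tested, of which 12 had both cKO scores below both controls), 0 with no filter and 0 without the variance trend, where 8, 18 and 18 had an unadjusted p under 0.05, and 0 to 4 with a sample left out. Over all genes, the calls with no filter were 0 lower and 0 higher, and those without the trend 22 and 11, 35 were higher with the filter above 0.05, and 0 to 391 were lower and 0 to 439 higher with a sample left out.

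The labels number the samples 1 and 2 in both groups without saying that a number marks a shared batch, and same-numbered samples correlated at -0.145 in their deviations, so the numbers were not taken as pairs. With the replicate block, 2 of the 47 genes were lower (Pola1 and Pole2), and over all genes 180 were lower and 177 higher. With the crossed replicate block, chosen after seeing the data, 3 of the 47 were lower, and 230 genes were lower and 212 higher. The log2 fold change of Gins3 turned to -0.30 without control 1 and -0.01 without cKO 2, and that of Rfc1 to -0.06 and -0.11, within ranges of -0.30 to 0.37 and -0.11 to 0.13 over the samples left out. Of 147 values of 13 named genes under alternatives, 136 kept their direction and side of the threshold. Of these genes only Pola1 was past the threshold in the main fit, so for the rest keeping their side meant staying above it. Pola1 was no longer past it with no filter and without the variance trend. With the filter above 0.05 Pola1 was not tested, since its scores lay below that limit. Its values with a sample left out are given with its scores above. The cause of the changes between settings was not tested.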
